A study of Mus musculus with 12 samples.

Results

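The Hox genes are 39 protein-coding genes of the mouse that carry the letter of their cluster, A to D, and a paralogue number from 1 to 13. They were chosen by symbol from the 25514 genes that the deposited transcripts could be assigned to, and for each gene the transcript with the highest total count over all libraries stood for it. Of the 39, 31 had enough counts to be tested and 8 did not. Hox genes encode homeodomain transcription factors, and in the embryo they are switched on in the order in which they lie on the chromosome, so that low paralogue numbers mark the front of the body axis and high ones the rear. Adult cells keep much of this code as a record of where they arose, held in place by Polycomb and Trithorax chromatin complexes and, for the early genes, set up by retinoic acid. In the kidney, paralogues of group 11 are known for their part in the outgrowth of the ureteric bud into the metanephric mesenchyme, the tissue from which proximal tubules form.

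RNA-seq had been done on 12 libraries of conditionally immortalized proximal tubule (PT) cells, 3 in each of 4 groups. All cells carried H2ts6, a T antigen allele from the Immorto-mouse that is active at 33 °C with interferon gamma, when the cells divide, and inactive at 37 °C, where they spent 5 days before the experiment, and all derived from mice with floxed alleles of Tgfbr2, the gene of the TGF-β type II receptor (TβRII). TβRII flox/flox PT cells kept that gene, and TβRII-/- PT cells were made from them with Cre adenovirus in culture, so genotype is also a difference between a parent culture and a line derived from it, and the 2 cannot be told apart. Each genotype was sequenced untreated, in normal culture medium, and after H2O2 for 24 h in serum-free medium, so H2O2 and the loss of serum cannot be told apart either; the labels give the dose as 200 mM, whereas the methods of the study give the same figure in µM. Nothing in the labels says that the 3 libraries of a group came from separate isolations, and p-values then measure the spread between these libraries, which may be technical.

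The libraries held between 15870155 and 20857618 counts on the transcripts used. Tgfbr2 itself was at 9248, 8369 and 7562 normalized counts in untreated TβRII flox/flox libraries and at 6782, 6675 and 6358 in untreated TβRII-/- libraries, a log2 difference of -0.35 ± 0.07 (edgeR adjusted p = 2.81e-05), and counts over the whole transcript do not single out the deleted part. A normalized count is a count scaled by TMM to the mean library of 17351835 counts. The cells carried part of the proximal tubule program. Lrp2, the endocytic receptor megalin, was at 17280 normalized counts on average in untreated TβRII flox/flox libraries, but 8 of 14 proximal tubule markers did not have enough counts to be tested, and Slc22a6 and Slc13a3, transporters of mature tubules, were at 0 throughout. The 6 proximal tubule markers tested were all lower in untreated TβRII-/- PT cells (summed markers from 22028 to 28013 normalized counts, against 15070 to 16101), and the 4 tested of 11 markers of ureteric bud and collecting duct were all higher (from 2712 to 3084, against 8985 to 9290), with Aqp2, Wnt9b and Calb1 at 0. Krt8 and Krt18, keratins of simple epithelia in general, made up most of that sum (1997 and 882 against 4418 and 4586 on average). Stromal markers, 5 of 10 tested (3 lower, and 1, Foxd1, higher), summed to between 5947 and 7199 normalized counts in untreated TβRII flox/flox libraries and to between 794 and 871 in untreated TβRII-/- libraries, Postn, a matrix gene, being at 6101 against 197 on average, and Tcf21 and Lum being at 0. Lrp2, Krt8, Krt18 and Postn are named for their high counts, seen in the data. Of markers of podocytes 3 of 5 were tested (1 higher, 1 lower), of nephron progenitors 2 of 5 (1 higher, 1 lower), of leukocytes 2 of 5 (1 higher) and of endothelium 1 of 5, the receptor gene Kdr (129 against 507 on average, higher). These marker levels moved with genotype as the Hox genes below did, and their part in the Hox results was not tested. In bulk RNA, fewer cells of a type and less RNA per cell cannot be told apart.

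The clusters lie on 4 chromosomes of the mouse build GRCm38.p6. HoxA covers 105.5 kb (chr6:52155367-52260880, 11 genes, minus strand), HoxB 173.9 kb (chr11:96194316-96368254, 10 genes), HoxC 115.7 kb (chr15:102921131-103036856, 9 genes) and HoxD 96.9 kb (chr2:74668225-74765142, 9 genes), the last 3 on the plus strand. Between the untreated genotypes the largest differences were those of Hoxd9, Hoxd3 and Hoxd4 and, outside HoxD, that of Hoxb8. The promoter windows of 3 HoxD genes and of Hoxb8 are printed here because the comparison below dwells on these genes. Each window runs from 250 bases before to 50 bases after a RefSeq start site, 5′ to 3′ on the plus strand, and capitals mark CpG dinucleotides, the sites at which DNA is methylated. Windows were matched for 22 of the 39 genes. The positions are chr2:74697513-74697812 for Hoxd9, chr2:74704365-74704664 for Hoxd8, chr2:74721728-74722027 for Hoxd4 and chr11:96281655-96281954 for a start site of Hoxb8.
Hoxd9: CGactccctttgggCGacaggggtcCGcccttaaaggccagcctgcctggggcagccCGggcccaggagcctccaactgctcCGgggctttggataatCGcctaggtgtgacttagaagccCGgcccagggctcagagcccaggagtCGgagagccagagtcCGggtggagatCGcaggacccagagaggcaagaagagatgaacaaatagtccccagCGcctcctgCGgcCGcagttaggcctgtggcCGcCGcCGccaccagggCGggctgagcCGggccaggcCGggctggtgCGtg
Hoxd8: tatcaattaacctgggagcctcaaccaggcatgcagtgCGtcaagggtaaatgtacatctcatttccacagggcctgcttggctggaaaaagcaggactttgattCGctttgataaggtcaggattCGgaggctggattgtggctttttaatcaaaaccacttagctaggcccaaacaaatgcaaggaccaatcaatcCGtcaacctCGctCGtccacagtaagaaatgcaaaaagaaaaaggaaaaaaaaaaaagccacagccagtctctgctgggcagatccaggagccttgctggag
Hoxd4: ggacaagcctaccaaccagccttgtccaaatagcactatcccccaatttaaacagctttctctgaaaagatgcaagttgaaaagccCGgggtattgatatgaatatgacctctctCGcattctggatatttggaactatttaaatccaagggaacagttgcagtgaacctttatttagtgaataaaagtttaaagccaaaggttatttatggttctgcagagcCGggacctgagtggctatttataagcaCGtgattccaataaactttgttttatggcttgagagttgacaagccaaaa
Hoxb8: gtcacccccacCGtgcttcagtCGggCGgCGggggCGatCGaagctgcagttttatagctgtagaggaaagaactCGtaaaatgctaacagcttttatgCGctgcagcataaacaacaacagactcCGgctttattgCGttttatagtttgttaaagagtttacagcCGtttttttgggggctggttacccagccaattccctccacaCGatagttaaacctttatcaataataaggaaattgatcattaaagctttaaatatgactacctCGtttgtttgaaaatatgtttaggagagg

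These 4 windows were unlike one another in base composition. The window of Hoxd9 held 20 CpG, that of Hoxb8 13, that of Hoxd8 6 and that of Hoxd4 4, and the window of Hoxd3, not printed, held 20. The median over 24 Hox windows was 14.5 CpG, with a range from 4 to 45, against a median of 7 over all 32851 windows. The 4 HoxD windows of tested genes had a median of 13 CpG and the 6 windows of HoxD genes without enough counts a median of 23.5. Motifs were searched on both strands. TATAAA, the letters of a TATA box, was found in 4 of 24 Hox windows (Hoxd13, Hoxd4, Hoxa10 and Hoxb8) and in 13.6% of all windows. In Hoxd4 and Hoxb8 it lay on the strand opposite to the one printed, which reads TTTATA there. It was from 10 to 5 bases before the start site in Hoxd4. In Hoxb8 it was at 2 places, from 199 to 194 and from 110 to 105 bases before it. TGATNNAT, the letters bound by a Pbx protein together with a Hox protein, was found in 4 of 24 Hox windows (Hoxd11, Hoxa2, Hoxb8 and Hoxb1) and in 8.85% of all windows. In Hoxb8 it lay from 11 to 4 bases before the start site, also on the opposite strand. TGACNNNGC, the core of the antioxidant response element, was found in the windows of Hoxd10 and Hoxa6 and in 12.4% of all windows. AGCCAGACA, a Smad-binding CAGA box, was in no Hox window and in 0.387% of all windows, and the retinoic acid response element of the DR5 type was in no Hox window and in 0.00913% of all windows. A match describes letters in a window and is not evidence of binding.

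The most abundant Hox genes of the cells had paralogue numbers from 6 to 10 in HoxA and HoxB, with Hoxc10 from HoxC, and the far end of HoxD had almost no counts. Levels are given per kb of the counted transcript, so that genes can be set side by side. In untreated TβRII flox/flox libraries Hoxc6 (81.3), Hoxc8 (31.8) and Hoxc9 (85.2) were below Hoxc4 (98.4). In untreated TβRII flox/flox PT cells Hoxb9, which patterns the thoracic skeleton, had the highest level (906 ± 14.1 normalized counts per kb, SD, n = 3), followed by Hoxb6 (605 ± 20.9), Hoxa9 (503 ± 13.5), Hoxc10, a gene of lumbar motor neurons (471 ± 6.87), and Hoxa7 (408 ± 21.3). Hoxb9, Hoxb6 and Hoxa9 were each apart from the next gene by more than their SDs, and Hoxa7, Hoxb8 (384 ± 42.4), Hoxa10 (383 ± 26.8) and Hoxc5 (348 ± 24.2) followed one another within theirs. The Hoxc5 level rests on a non-coding transcript of 615 bases that shares 27.0% of its bases with Hoxc10. On its coding transcript, which shares no bases with another counted gene on its strand, Hoxc5 was at 36.8 normalized counts per kb in the same libraries.

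The 8 genes without enough counts were Hoxa11, Hoxa13, Hoxb1, Hoxd1, Hoxd10, Hoxd11, Hoxd12 and Hoxd13. Hoxa11, Hoxd1, Hoxd11, Hoxd12 and Hoxd13 had 0 counts in each of 12 libraries, which allows up to 3 counts in each, for counting error only. Hoxa13 had 4 counts in all libraries together, Hoxb1 5 and Hoxd10 5. So of the kidney paralogues of group 11 the counts were all on Hoxc11, which was at 78.9, 85.7 and 75.3 normalized counts in untreated TβRII flox/flox libraries and at 60.7, 53.2 and 50.7 in untreated TβRII-/- libraries. This difference in Hoxc11 did not pass the fold limit (log2 -0.54, edgeR adjusted p = 0.00504).

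**Figure D1:**
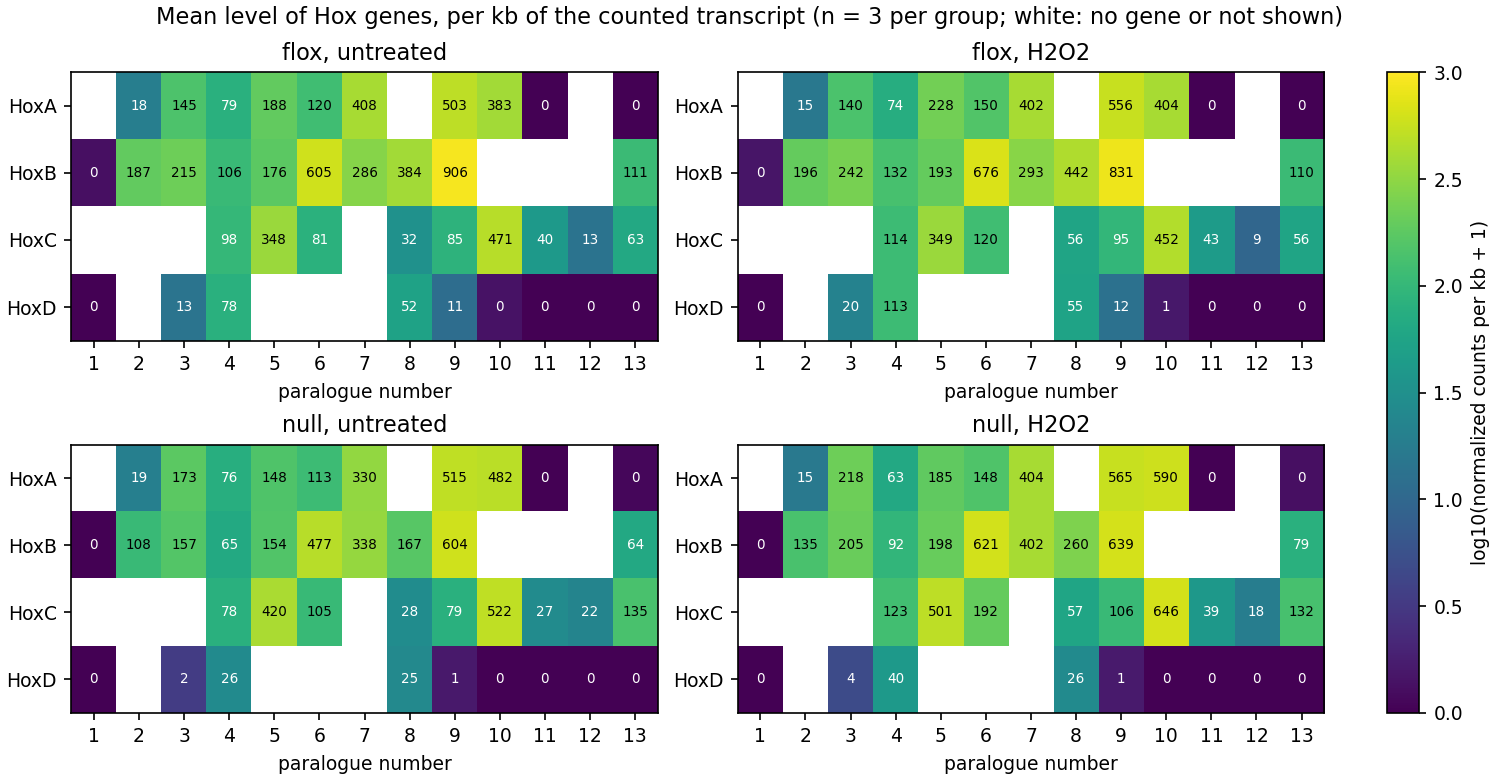
Mean level of Hox genes in the 4 groups (flox, TβRII flox/flox PT cells; null, TβRII-/- PT cells), as log10 of normalized counts per kb plus 1, by cluster (rows) and paralogue number (columns), with white where the cluster has no such gene or it is not shown. HoxD is dark (low) from paralogue 10 on, and its genes from 3 to 9 are darker in null than in flox. The middle of HoxA and HoxB is bright in every group, as are Hoxc5 and Hoxc10, whereas Hoxc8 is darker.

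Between the untreated genotypes the Hox genes did not move as one group. Of the HoxD genes, Hoxd4 and Hoxd8 were lower in TβRII-/- PT cells. Hoxd3 and Hoxd9 were lower too, but they had enough counts to be tested only through the TβRII flox/flox groups, which favoured this direction in advance. In HoxB 5 of 9 tested genes were lower, and in HoxC 2 of 9 (Hoxc12 and Hoxc13) were higher. None of the 9 tested HoxA genes passed the limits, their log2 differences lying between -0.34 and 0.33. A gene was called at p under 0.01 and a fold change of 1.5 or more, the limits of the study, in edgeR's quasi-likelihood test. In all, 11 of 31 tested Hox genes were called, 9 lower and 2 higher, where 27.0% of the 12971 genes tested were called, 11.3% lower and 15.7% higher. The median log2 difference was -0.20 over the 31 Hox genes and 0.01 over all genes. By cluster it was -0.05 for HoxA, -0.59 for HoxB and 0.15 for HoxC. No median is given for HoxD, because Hoxd3 and Hoxd9 passed the filter on low counts only through the TβRII flox/flox groups. With only genes at 10 or more counts in every library, which leaves out Hoxd3 and Hoxd9, 29 Hox genes were tested. Between untreated genotypes 8 of them were called, 6 lower and 2 higher, where 2638 of 11473 genes were called. Between genotypes with H2O2 7 were called, 3 lower and 4 higher, where 2957 of 11473 genes were called. At an adjusted p of 0.05 without the fold limit 22 of 31 Hox genes were called, 15 lower and 7 higher, where 64.7% of all genes were (31.4% lower, 33.3% higher), so that the share in all was close to the background.

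The largest differences were those of Hoxd9, Hoxd3 and Hoxd4, of which Hoxd9 and Hoxd3 were tested only through the TβRII flox/flox groups. Hoxd8 (log2 -1.05) differed less than Hoxb8 (-1.20) and Hoxc13 (1.09). Hoxd9, which with its paralogues patterns the lumbosacral region and the upper limb, was at 24.2, 21.1 and 26.9 normalized counts in untreated TβRII flox/flox libraries and at 3.14, 0.97 and 0 in untreated TβRII-/- libraries. The genotypes did not overlap, and the TβRII-/- libraries stood at or near 0. From 67 raw counts against 4, scaled by library size, the ratio was 18.3 (95% interval 6.82 to 69.1, counting error only). The fitted log2 difference of -4.07 ± 0.58 (edgeR adjusted p = 2.55e-07) depends on the prior count at such low values.

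Hoxd4, a gene of the hindbrain and neck, was at 207, 207 and 193 normalized counts in untreated TβRII flox/flox libraries and at 71.1, 60.0 and 71.8 in untreated TβRII-/- libraries. All 3 TβRII-/- libraries were below all 3 TβRII flox/flox libraries, a log2 difference of -1.58 ± 0.13, or 2.99-fold lower (edgeR adjusted p = 2.04e-12). Hoxd8, a gene of the trunk, was at 125, 175 and 157 normalized counts in untreated TβRII flox/flox libraries and at 82.6, 62.9 and 74.7 in untreated TβRII-/- libraries. These too did not overlap, and the log2 difference was -1.05 ± 0.15, or 2.07-fold lower (edgeR adjusted p = 4.27e-07).

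Hoxd3, which patterns the first neck vertebrae, was at 40.0, 54.5 and 22.6 normalized counts in untreated TβRII flox/flox libraries and at 13.6, 0.97 and 6.70 in untreated TβRII-/- libraries. The libraries within each genotype varied more than for the other HoxD genes, without overlap between genotypes, and the log2 difference was -2.47 ± 0.41 (edgeR adjusted p = 4.78e-06). The Hoxd3 gene (chr2:74711993-74748271) spans that of Hoxd4 (chr2:74721978-74729160), its counted transcript shares 88.0% of its bases with Hoxd4 and Gm28230, an overlapping gene model, and 44.7% of the counted Hoxd4 transcript is shared with Gm28230. Values of Hoxd3 and Hoxd4 are therefore uncertain apart from each other. The counted transcripts of Hoxd8 and Hoxd9 shared no bases with another counted gene on the same strand, and overlap with genes on the other strand was not checked.

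**Figure D2:**
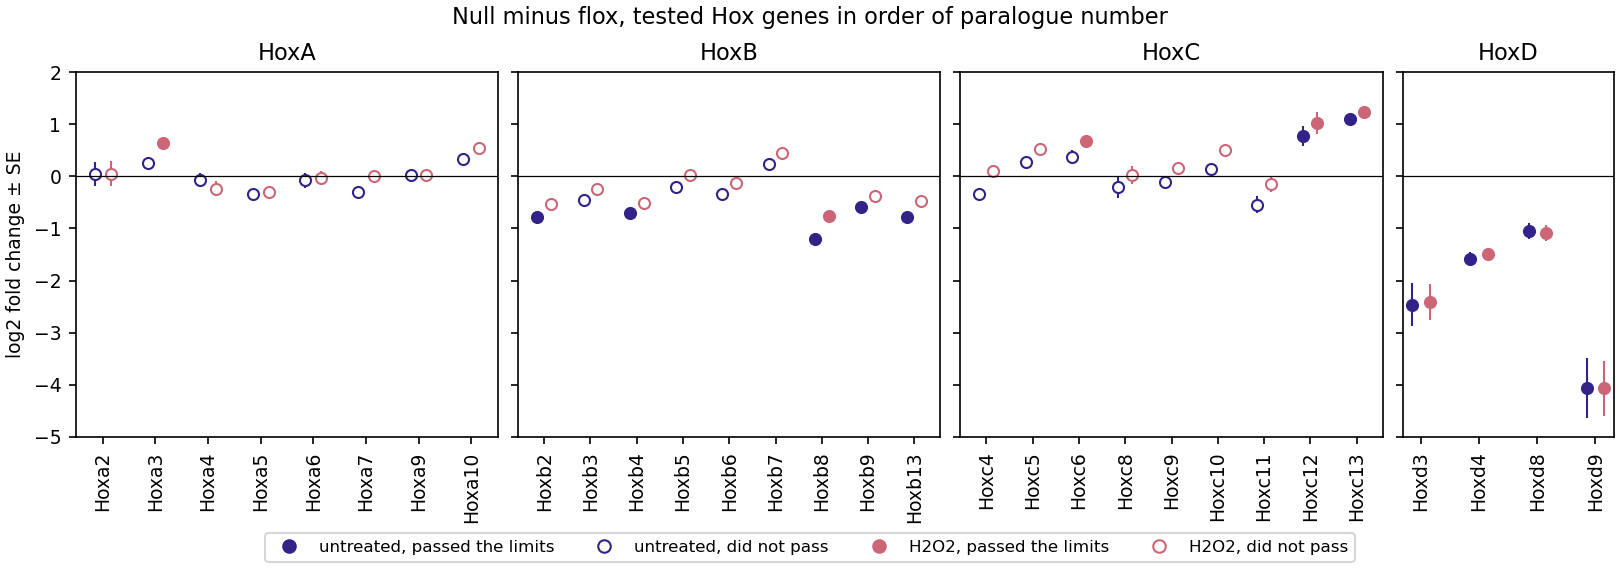
Log2 difference between TβRII-/- (null) and TβRII flox/flox (flox) PT cells for tested Hox genes, each with its SE, untreated and with H2O2, in order of paralogue number within each cluster; filled points passed the limits. The 4 HoxD genes lie between -4.07 and -1.05 in both conditions, HoxA stays near 0, and Hoxc12 and Hoxc13 stand above 0.

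In HoxB, 8 of 9 tested genes had a log2 difference below 0, and Hoxb7 (0.24) was the exception. Hoxb8, a gene of the lower trunk that is also known from myeloid progenitors, was at 947, 1145 and 955 normalized counts in untreated TβRII flox/flox libraries and at 359, 497 and 466 in untreated TβRII-/- libraries. The TβRII-/- libraries were all below the others, by -1.20 ± 0.09 on the log2 scale, or 2.3-fold lower (edgeR adjusted p = 9.34e-14), the largest difference outside HoxD among the 31. In the order of levels per kb Hoxb8 moved from place 6 to place 10.

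Hoxb2, which acts in the hindbrain, was at 294, 328 and 290.4 normalized counts in untreated TβRII flox/flox libraries and at 205, 161 and 164 in untreated TβRII-/- libraries (log2 -0.79 ± 0.10, edgeR adjusted p = 5.27e-08). Hoxb13, the last gene of the cluster and a gene of the tail and the prostate, was at 264, 255 and 226 normalized counts in TβRII flox/flox libraries and at 149.5, 137 and 146 in TβRII-/- libraries (log2 -0.78 ± 0.11, edgeR adjusted p = 4.62e-07). Hoxb4, known for expanding blood stem cells, was at 259, 246 and 309 normalized counts in TβRII flox/flox libraries and at 155, 180.1 and 166 in TβRII-/- libraries (log2 -0.70 ± 0.11, edgeR adjusted p = 1.57e-06). None of the 3 genes, of paralogue numbers 2, 4 and 13, overlapped between genotypes. The share of all genes without overlap was not computed, for these or for other genes described so. Hoxb9, the Hox gene with the highest level on the transcripts used, was at 2411, 2459 and 2486 normalized counts against 1640, 1638 and 1624. Its log2 difference of -0.59 ± 0.06 (edgeR adjusted p = 1.83e-10) lies at the fold limit. Hoxb3 (-0.46) and Hoxb6 (-0.34) had lower means in TβRII-/- PT cells without passing the fold limit (edgeR adjusted p = 7.7e-06 and 3.0e-05), and Hoxb5 (-0.20) passed neither limit.

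The called genes of HoxC were at its far end and went the other way. Hoxc13, which drives hair keratin genes, was at 133, 140.2 and 195 normalized counts in untreated TβRII flox/flox libraries and at 324, 349.5 and 324 in untreated TβRII-/- libraries. It was 2.13-fold higher without overlap (log2 1.09 ± 0.11, edgeR adjusted p = 3.54e-10) and moved from place 24 to place 14 in the order of levels per kb. Its neighbour Hoxc12 was at 46.3, 38.9 and 39.8 normalized counts in TβRII flox/flox libraries and at 76.3, 76.5 and 61.3 in TβRII-/- libraries. That difference was 1.71-fold, also without overlap (log2 0.77 ± 0.20, edgeR adjusted p = 0.000936). The other 7 tested HoxC genes lay between -0.54 (Hoxc11) and 0.37 (Hoxc6) on the log2 scale.

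**Figure D3:**
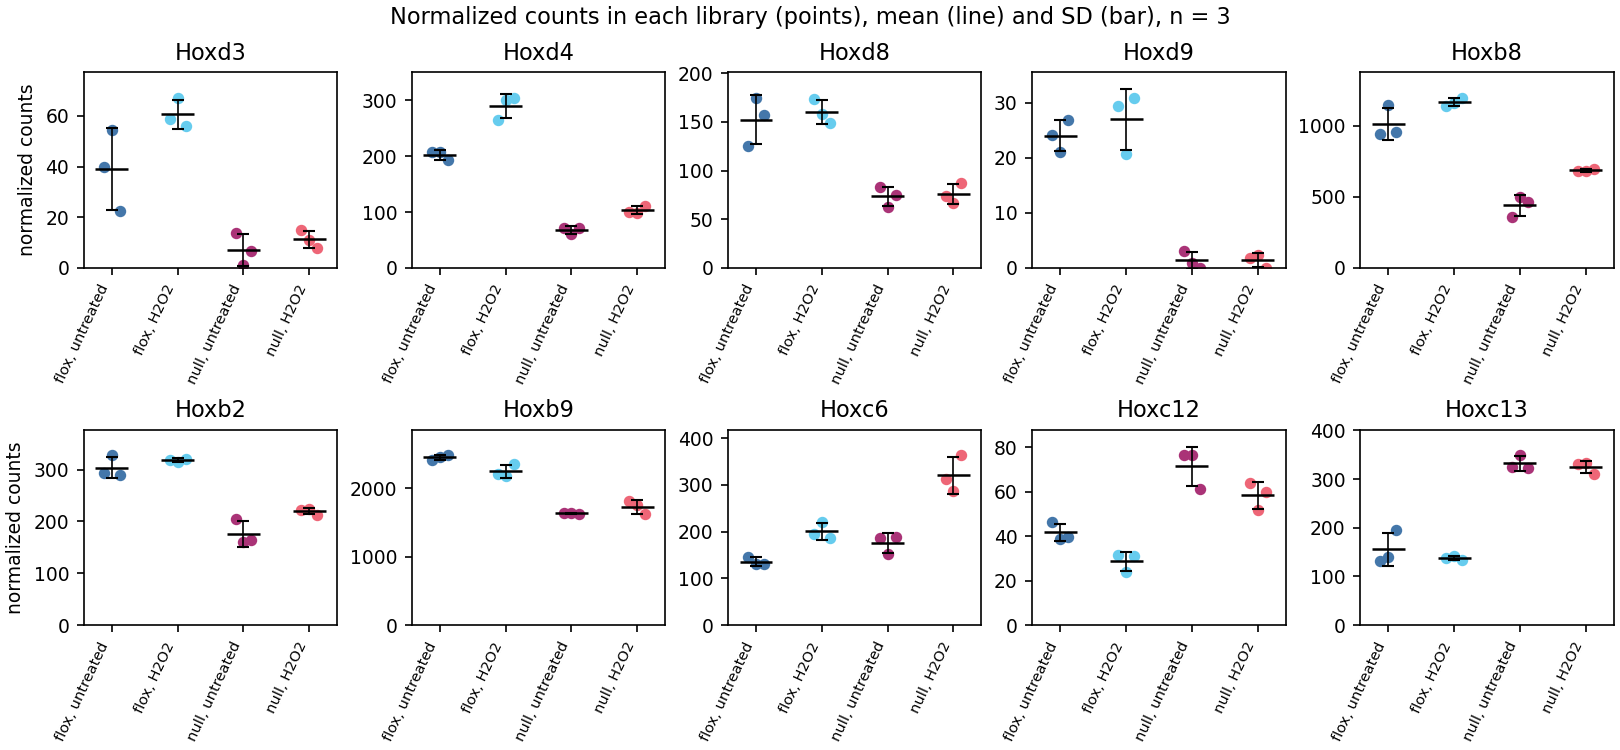
Normalized counts of 10 Hox genes in each library (points), with the mean (line) and SD (bar) of each group of 3, where flox is TβRII flox/flox and null is TβRII-/-; every axis starts at 0. The HoxD genes and Hoxb8 are lower in both null groups and Hoxc13 is higher, and Hoxc6 is highest in null cells with H2O2.

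The genotype difference was also read by paralogue number, and whether it depended on position along the clusters was not tested. Of 21 tested genes with paralogue numbers from 1 to 8, 6 were lower, Hoxd3 among them, and none higher, with a median log2 difference of -0.31. Of 10 with numbers from 9 to 13, 3 were lower, Hoxd9 among them, and 2 higher, with a median of -0.04. Of all genes tested 11.3% were lower and 15.7% higher. Hoxd3 and Hoxd9 passed the filter on low counts only through the TβRII flox/flox groups, which favoured the lower direction in these counts and medians in advance. All 4 genes of group 4 had a log2 difference below 0 (Hoxa4 -0.07, Hoxb4 -0.70, Hoxc4 -0.33, Hoxd4 -1.58). Genes of one group also went apart, Hoxb13 being lower and Hoxc13 higher, and of group 9 Hoxa9 (0.03) and Hoxc9 (-0.10) were near 0 whereas Hoxb9 and Hoxd9 were lower.

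The mix of clusters in the Hox RNA differed between the genotypes. The share of HoxB in the summed level per kb was 47.5% ± 0.30 (SD, n = 3) in untreated TβRII flox/flox libraries and 38.6% ± 0.44 in the untreated TβRII-/- ones. HoxD went from 2.47% ± 0.14 to 0.98% ± 0.14, while HoxA made up 30.4% ± 0.55 and 34.7% ± 0.28 and HoxC 19.6% ± 0.69 and 25.6% ± 0.53. The summed level itself was 6273 ± 107 normalized counts per kb in the first group and 5524 ± 120 in the second. These differences exceed the SDs of the libraries, and no test was run on such sums. The shares rest on 1 transcript per gene. The HoxC sums of 1232 and 1417 normalized counts per kb include Hoxc5 at 348 and 420, counted on its non-coding transcript. With all transcripts of a gene summed HoxB was at 35.7% and 28.4%, HoxA at 50.2% and 57.5% and HoxC at 10.4% and 12.6%. This keeps the order of the genotypes and changes that of the clusters.

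**Figure D4:**
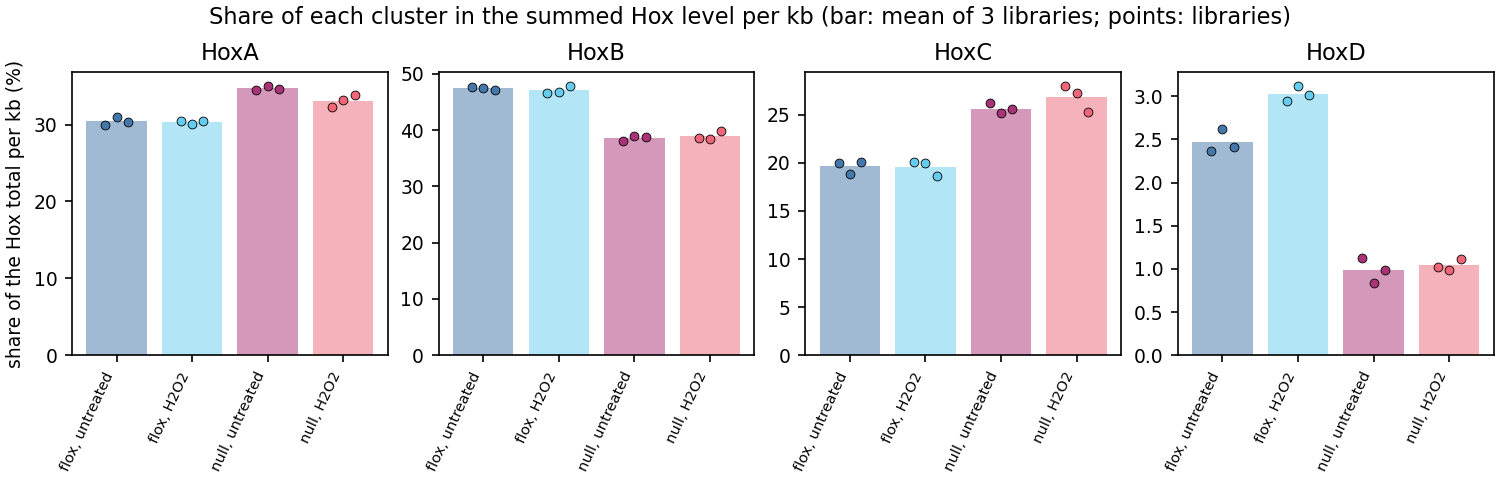
Share of each cluster in the summed Hox level per kb, in percent, for the 4 groups (bar, mean of 3 libraries; points, libraries; flox, TβRII flox/flox; null, TβRII-/-). HoxB and HoxD take smaller shares in both null groups, and HoxA and HoxC larger ones.

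The genotypes were compared again with H2O2, where the libraries are separate from the untreated ones. The HoxD genes were again lower, at a similar size, with the same limit from the filter for Hoxd3 and Hoxd9. Hoxd9 was at 29.4, 20.7 and 30.9 normalized counts in TβRII flox/flox libraries and at 1.85, 2.36 and 0 in TβRII-/- libraries, and 76 raw counts against 5 gave a ratio of 18.1 (95% interval 7.41 to 57.3). Hoxd4 was at 266, 301 and 305 normalized counts against 101, 98.3 and 111 (log2 -1.49 ± 0.11, edgeR adjusted p = 3.04e-13). Neither gene overlapped between genotypes. Hoxd8 was at 173, 158 and 149 normalized counts against 73.8, 66.8 and 87.5 (log2 -1.09 ± 0.15, edgeR adjusted p = 1.23e-07), and Hoxd3 at 58.8, 67.1 and 56.2 against values from 7.96 to 14.8 (log2 -2.41 ± 0.34, edgeR adjusted p = 1.99e-07). The interaction of genotype and H2O2, tested over all 12 libraries, lay between -0.03 and 0.09 on the log2 scale for the 4 HoxD genes and was called for none of them.

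With H2O2, 9 of 31 Hox genes were called between genotypes, 5 lower and 4 higher, where 29.8% of all genes tested were called, 12.9% lower and 16.9% higher. At an adjusted p of 0.05 alone the Hox genes called were 19, with 11 lower and 8 higher, where 66.4% of all genes were (31.3% lower, 35.1% higher). HoxB had 1 called gene in place of 5. Hoxb8 was at 1142, 1164 and 1199 normalized counts in TβRII flox/flox libraries and at 681, 683 and 697 in TβRII-/- libraries, a log2 difference of -0.77 ± 0.08 (edgeR adjusted p = 7.69e-10), with tight and separate groups. Hoxb2 (log2 -0.53), Hoxb4 (-0.52), Hoxb13 (-0.47) and Hoxb9 (-0.38) had lower means in TβRII-/- libraries and were under the fold limit. In HoxC, Hoxc13 was at 137, 142 and 134 normalized counts against 331, 333 and 311 (log2 1.24 ± 0.11, edgeR adjusted p = 2.21e-11) and Hoxc12 at 31.5, 23.8 and 30.9 against 63.7, 51.9 and 59.7 (log2 1.02 ± 0.21, edgeR adjusted p = 9.76e-05). Hoxc6, a thoracic gene, joined them at 195, 221 and 186 normalized counts against 313, 286 and 364 (log2 0.67 ± 0.11, edgeR adjusted p = 2.63e-06). In HoxA, Hoxa3, which is needed for the thymus and parathyroid glands, was at 338, 349 and 402 normalized counts against 579, 517 and 599 (log2 0.64 ± 0.08, edgeR adjusted p = 3.75e-08). The TβRII-/- libraries of these 4 genes were all above the TβRII flox/flox libraries. Hoxa3 lost its call in 3 of 19 alternatives, without replicate 1 or replicate 2 of treated TβRII flox/flox and on the transcript that shares the fewest bases. Its log2 difference was then as low as 0.51. Hoxc6 lost its call in 2 of 19, and Hoxc12 and Hoxc13 kept theirs. Medians by cluster were 0.02 for HoxA, -0.38 for HoxB and 0.52 for HoxC, against 0.02 over all genes.

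Few Hox genes passed the limits with H2O2 in TβRII flox/flox PT cells. Of 31 tested, 1 rose, Hoxc8, and 1 fell, where 7.56% of all genes tested were called (5.13% higher, 2.44% lower), so the share of Hox genes was close to the background. Hoxc8, a gene of the brachial and thoracic cord and ribs, was at 85.2, 61.2 and 65.6 normalized counts untreated and at 93.3, 140.5 and 138 with H2O2, with no overlap (log2 0.80 ± 0.19, edgeR adjusted p = 0.00107). The count for Hoxc8 is on a transcript with a retained intron, and on its coding transcript the log2 difference was 0.75. Hoxc6 (0.56 ± 0.13, edgeR adjusted p = 0.000535) and Hoxd4 (0.52 ± 0.11, edgeR adjusted p = 0.000194) were just under the fold limit. On its coding transcript Hoxc5 was also just under it (0.56, edgeR adjusted p = 0.000796), against 0.01 on the transcript with the highest total. Without replicate 1 of the treated group 4 genes were called in place of 2. The log2 difference was above 0 for 21 of 31 Hox genes, with a median of 0.12, where 6590 of 12971 genes were above 0, with a median of 0.01.

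In TβRII-/- PT cells 5 of 31 Hox genes rose with H2O2 and none fell, where 4.25% of all genes tested rose and 3.52% fell, 7.77% in all. Hoxc6 was at 187, 152 and 189.5 normalized counts untreated and at 313, 286 and 364 with H2O2 (log2 0.86 ± 0.11, edgeR adjusted p = 2.05e-07). Hoxc8 was at 66.9, 52.3 and 66.1 normalized counts untreated and at 114, 102 and 164 with H2O2 (log2 1.02 ± 0.19, edgeR adjusted p = 5.70e-05), and Hoxc4, at the front end of the cluster, at 178, 146 and 143 against 245, 243 and 242 (log2 0.65 ± 0.11, edgeR adjusted p = 1.52e-05). These 3 HoxC genes were higher in every treated library. Hoxb8 rose from 359, 497 and 466 normalized counts to 681, 683 and 697 (log2 0.64 ± 0.09, edgeR adjusted p = 7.31e-07), which stayed below its level in either TβRII flox/flox group. Hoxd4 rose from 71.1, 60.0 and 71.8 normalized counts to 101, 98.3 and 111 (log2 0.61 ± 0.14, edgeR adjusted p = 0.000797). Counted on its coding transcript, Hoxc5 also passed the limits, at 129 ± 15.9 normalized counts untreated and 210 ± 7.39 with H2O2 (log2 0.69, edgeR adjusted p = 1.63e-05), whereas on the transcript with the highest total its log2 difference was 0.26. The interaction of Hoxc5 on the coding transcript was 0.14 and was not called.

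**Figure D5:**
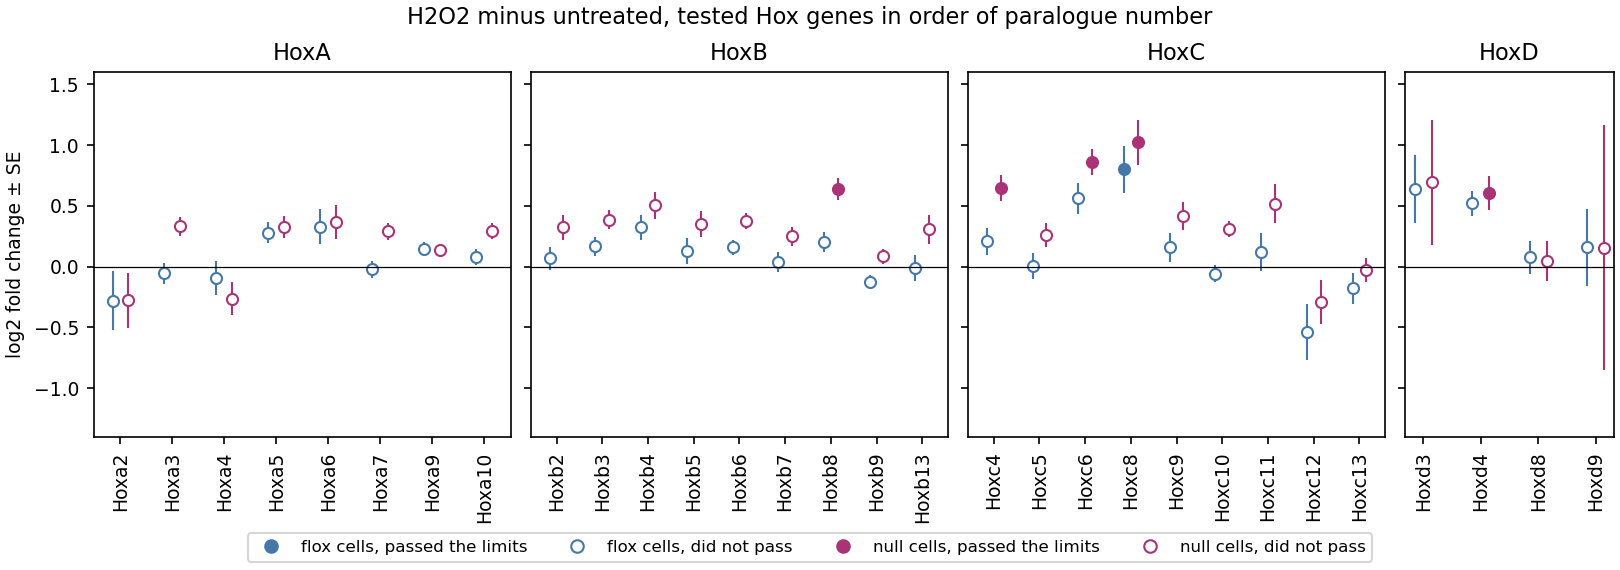
Log2 difference between H2O2 and untreated PT cells for tested Hox genes, each with its SE, in TβRII flox/flox (flox cells) and TβRII-/- (null cells), in order of paralogue number; filled points passed the limits. Hoxc12 and Hoxc13 are below 0 in both genotypes, Hoxc6 and Hoxc8 are well above it, and most null points lie above the flox points.

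The log2 difference with H2O2 in TβRII-/- PT cells was above 0 for 26 of 31 Hox genes, with a median of 0.32, where 6812 of 12971 genes were above 0, with a median of 0.02. At an adjusted p of 0.05 without the fold limit, 22 of 31 Hox genes were called, 21 higher and 1 lower, where 39.6% of all genes were, 20.5% higher and 19.1% lower. In TβRII flox/flox PT cells that rule called 9 of 31, 8 higher and 1 lower, where it called 41.6% of all genes, 21.0% higher. The summed Hox level was 6618 ± 78.3 normalized counts per kb in TβRII flox/flox and 6750 ± 77 in TβRII-/- PT cells with H2O2. On this sum the libraries of the genotypes overlapped after treatment (6535 to 6690 and 6666 to 6817) and did not before it (6190 to 6393 and 5420 to 5655), while the shares of the clusters remained apart (HoxB 47.1% ± 0.73 and 39.0% ± 0.69, HoxD 3.03% ± 0.09 and 1.04% ± 0.07).

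The difference between the H2O2 effects was tested as an interaction, called at an adjusted p of 0.05. It was called for Hoxa3, Hoxa7, Hoxb8 and Hoxc10, 4 of 31, in each case with the larger effect in TβRII-/- PT cells, where 10.2% of all genes tested were called, 3.90% in this direction and 6.28% in the other. Hoxa3 went from 384, 395 and 349.5 to 338, 349 and 402 normalized counts in TβRII flox/flox libraries and from 449.7, 448 and 445 to 579, 517 and 599 in TβRII-/- libraries (interaction log2 0.39 ± 0.12, edgeR adjusted p = 0.0314). Hoxa7, a trunk gene, was at 807, 867 and 784 untreated and 801, 776 and 846 normalized counts treated in TβRII flox/flox libraries, against 633, 630.3 and 724 and 793, 820.1 and 819 in TβRII-/- libraries (0.31 ± 0.10, edgeR adjusted p = 0.0364). Treated and untreated libraries overlapped in TβRII flox/flox PT cells for both genes, and did not in TβRII-/- PT cells. Hoxc10 was at 957, 930.3 and 949 normalized counts untreated and 975, 908 and 839 treated in TβRII flox/flox libraries, against 1035, 1006 and 1103 and 1409.5, 1308 and 1176 in TβRII-/- libraries (0.37 ± 0.10, edgeR adjusted p = 0.0140). For Hoxb8, whose values are given above, the interaction was 0.44 ± 0.12 (edgeR adjusted p = 0.0162). All 4 calls were lost when the counts of all transcripts of a gene were summed (edgeR adjusted p from 0.077 to 0.129), and leaving out 1 library gave from 1 to 4 calls. With untreated TβRII flox/flox replicate 2 left out 1 gene, Hoxc10, was called, and without replicate 1 of treated TβRII-/- PT cells 1 gene, Hoxb8. Without replicate 1 of untreated TβRII-/- PT cells 2 genes were called, Hoxc10 and, newly, Hoxc4. Without any one of replicates 1, 2 and 3 of treated TβRII flox/flox, replicate 3 of treated TβRII-/- or replicate 2 of untreated TβRII-/- PT cells, 2 of the 4 genes were called. The interaction was above 0 for 27 of 31 Hox genes, among them 9 of 9 in HoxB and 9 of 9 in HoxC, with a median of 0.22, where 6842 of 12971 genes were above 0, with a median of 0.01. It shares its libraries with the genotype and H2O2 comparisons above.

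Genes around HoxD did not, as a set, share its direction. Among the 5 nearest tested genes on each side of each cluster, 40 in all, 6 were higher in untreated TβRII-/- PT cells and 1 was lower, with a median log2 difference of 0.18, where 15.7% of all genes were higher and 11.3% lower. Beside HoxD these were Mtx2, a mitochondrial import gene 60.7 kb from the cluster (0.61), the transcription factor Atf2 (0.83), Nfe2l2, the regulator of antioxidant genes (1.11), and Ift70b, a ciliary gene (0.98), all higher, and Wipf1, an actin regulator, which was lower (-2.08). Beside HoxA Jazf1 (0.88) and Spmip4 (1.54) were higher, and none of the 10 genes around HoxB or the 10 around HoxC passed the limits. With H2O2 the same comparison gave 7 higher and 4 lower of 40, close to the 16.9% and 12.9% of all genes. The median log2 differences of these flanking genes were 0.40 around HoxA, -0.28 around HoxB, 0.40 around HoxC and 0.42 around HoxD. For HoxB, HoxC and HoxA, whose own median was only 0.02, these had the sign of the cluster's own median. Whether the neighbours moved with the clusters was not tested. In response to H2O2 none of the 40 passed in TβRII flox/flox PT cells, and Creb5 (0.64) and Tril (0.77), both beside HoxA, rose in TβRII-/- PT cells.

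Cofactors that bind DNA together with Hox proteins, the TALE homeodomain proteins, showed 1 gene higher and 1 lower of 8 tested between untreated genotypes, where 27.0% of all genes were called, with a median log2 difference of 0.19. Pbx4 was at 80.9 normalized counts on average in TβRII flox/flox and 188 in TβRII-/- PT cells (1.21 ± 0.15, edgeR adjusted p = 1.54e-08). None of the 8 passed with H2O2 in either genotype, and the interaction was called for 2 of them, among them Meis2 (0.34, named after its value was seen), where 10.2% of all genes were called. That count was lower, down to 0, in 15 of 20 alternatives.

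Of the retinoic acid pathway, which sets Hox expression in the embryo, 12 of 18 genes were tested, and 4 were higher and 3 lower in untreated TβRII-/- PT cells, where 15.7% of all genes were higher and 11.3% lower. Stra6, the receptor through which cells take up retinol, was at 10.1 normalized counts on average in TβRII flox/flox and 295 in TβRII-/- PT cells (log2 4.85). Aldh1a2, which makes retinoic acid, was at 208 and 730.3 (1.81), and the receptor Rxra at 529 and 1245 (1.24). Lower in TβRII-/- PT cells were Cyp26b1, which breaks retinoic acid down (137 and 58.2, log2 -1.24), and the retinaldehyde reductase Dhrs3 (3462 and 2012, -0.78). With H2O2, 3 of the 12 rose and 2 fell in TβRII flox/flox PT cells, and 1 rose and 2 fell in TβRII-/- PT cells. Chosen after their values were seen, Aldh1a1 (-2.21 and -2.11) and Cyp26b1 (-1.48 and -1.74) fell in both genotypes, and Rdh10, which makes retinal, rose in both (1.27 and 0.84).

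Of 29 Polycomb genes, all tested, 4 were higher and 1 was lower in untreated TβRII-/- PT cells, with a median log2 difference of -0.03, where 27.0% of all genes were called. Between genotypes with H2O2, 7 of the 29 were higher and 0 lower, where 16.9% of all genes were higher, and the interaction was called for 3. The ones higher in untreated TβRII-/- PT cells included Pcgf6 (1.35), Pcgf5 (0.95) and Epop (65.4 normalized counts on average in TβRII flox/flox and 143 in TβRII-/- PT cells), and Jarid2 was the lower one (-0.62). None of the 29 passed between H2O2 and untreated in either genotype. None of the 15 tested Trithorax and related genes passed in any comparison, the medians lying between -0.11 and 0.09. Of 9 genes of the ParaHox, Evx and Gdf11 list, which act with or beside Hox genes on the body axis, only the growth factor gene Gdf11, named after its values were seen, had enough counts to be tested, and Gsx1, Gsx2, Cdx4, Evx1 and Evx2 were at 0 in all libraries. Gdf11 rose with H2O2 in TβRII flox/flox PT cells (log2 0.79) and was at -0.37 between untreated genotypes, which did not pass the fold limit.

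Genes that pattern the kidney moved in both directions, 4 of 13 tested being higher and 3 lower in untreated TβRII-/- PT cells, with a median log2 difference of -0.03, where 15.7% of all genes were higher and 11.3% lower. Gata3, a regulator of the nephric and collecting duct, was at 44.6 normalized counts on average in TβRII flox/flox and 116 in TβRII-/- PT cells (1.38). Eya1, a cofactor that acts with Hox11 proteins in the metanephric mesenchyme, was at 157 and 314 (edgeR adjusted p = 1.34e-08), and the stromal regulator Foxd1 at 303 and 606 (edgeR adjusted p = 2.85e-11). Osr1, an early gene of the kidney mesoderm, was at 238 and 49.6 (-2.26). Gdnf, the ligand that draws out the ureteric bud, was at 49.4 normalized counts in TβRII flox/flox and 0.99 in TβRII-/- PT cells, and Lhx1, a gene of the nephric duct, at 33.6 and 0.96, and no fold is given for them because the second group was at or below 3 counts. Both are among the 3 lower genes. At such counts the untreated TβRII-/- libraries did not bring them past the filter on low counts, which favoured this direction in advance. Non-coding RNAs of the Hox clusters were not analysed here.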

How the data were processed

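RNA of 12 libraries was read from whole-number counts as deposited. Per the labels and the study's methods, the authors trimmed reads with fastp, used STAR for alignment to GRCm38.p6 (annotation GENCODE M23) and featureCounts for counting, and did not normalize the counts. They deposited counts per transcript, whereas the tests had been designed for gene counts, and reads on bases common to several transcripts add to each. Whether strand was used in counting is not given in the sources used here. Identifiers of 104820 out of 106332 transcripts were found in GENCODE M39, and the rest, with 1.22% to 1.28% of each library's counts, were left out. The transcript with the highest total stood for its gene.

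After TMM normalization and a filter on low counts (filterByExpr with the 4 groups as design, 12971 genes kept), glmQLFit and glmQLFTest were run on all 12 libraries with a mean per group (R 4.3.3, edgeR 4.0.16, limma 3.58.1), with Benjamini-Hochberg adjustment over all genes tested. Calls used p under 0.01 and a fold change of 1.5, and adjusted p under 0.05 for the interaction. Samples were grouped and numbered by their labels, and 1 untreated TβRII flox/flox replicate (replicate 3) has a title abbreviated differently from the others. No pair of replicates agreed within sampling noise (chi-square per gene from 3.60 to 12.3). The method was tested on simulated counts, with changes only between untreated genotypes and only in genes of higher counts. That does not cover differences at low counts, as for Hoxd9 and Hoxd3, or the interaction. The Hox genes, the gene lists and the tests were chosen with earlier results of these data known. Hox genes are named by their symbols, and some genes that meet the rules are not reported here; of each other list, at most 3 genes with the largest rise and 3 with the largest fall among those called between untreated genotypes at 10 or more normalized counts on average; and of the flanking genes those called in the comparison described. Alternatives were DESeq2 1.42.0, its size factors, no filter or a minimum of 10 counts in every library, only the groups compared, adjusted p, the replicate number as a block, each library left out, summed transcripts and the transcript with the least sharing; the coding (canonical) transcript was added after the counts had been seen. Promoter windows are those of RefSeq on GRCm38.p6. Tables were joined and figures drawn with Python 3.11.15, pandas 2.3.3 and matplotlib 3.10.9.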

Additional observations from a re-analysis of the deposited data

Results flagged for a closer look

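The H2O2 effect differed between the genotypes, by the interaction test over all 12 libraries in edgeR, for 4 of the 31 tested Hox genes. The log2 difference between the effects (TβRII-/- minus TβRII flox/flox PT cells) was 0.39 for Hoxa3 (adjusted p = 0.0314), 0.31 for Hoxa7 (adjusted p = 0.0364), 0.44 for Hoxb8 (adjusted p = 0.0162) and 0.37 for Hoxc10 (adjusted p = 0.0140). Hoxc4 had the largest interaction of all, 0.44, and missed the threshold (adjusted p = 0.0632 in edgeR). On the transcript of Hoxa3 that shares the fewest bases the interaction was 0.11 (adjusted p = 0.909 in edgeR). Groups of 3 libraries are too small for a check of single libraries that stand apart.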

How the results depend on the processing

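With an adjusted p under 0.05 in place of the limits on p and fold change, the Hox genes called were 22 between untreated genotypes, 19 between genotypes with H2O2, 9 with H2O2 in TβRII flox/flox and 22 with H2O2 in TβRII-/- PT cells, against 11, 9, 2 and 5. The 4 interaction calls became 2 in DESeq2 (Hoxb8 and Hoxc10) and 0 in edgeR on summed transcripts, where the cause was not tested. Leaving out 1 library gave from 10 to 12 calls between untreated genotypes, from 8 to 10 with H2O2, from 2 to 4 with H2O2 in TβRII flox/flox (4 without replicate 1 of the treated group), from 4 to 5 in TβRII-/- PT cells and from 1 to 4 for the interaction, with 1 call without replicate 2 of untreated TβRII flox/flox or replicate 1 of treated TβRII-/- PT cells, and 2 calls, not always of the same genes, without any one of 6 others. With the replicate number as a block the counts were 11, 9, 2, 5 and 4, and same-numbered libraries did not deviate together (r from -0.101 to 0.058, above 0.1 in 0 of 18 pairs). No pairing by number was seen, which does not exclude one. Of 2908 gene values under the alternatives, 2847 kept their call or stayed uncalled, 98 of them changing sign with no call in either setting, 44 lost a call, 17 gained one and 0 reversed a called direction. Hoxb9 lost its untreated genotype call in 5 alternatives. Of 204 cluster shares, 122 moved by more than 1 SD. Genes at a few counts per library, such as Hoxd9, are limited by depth.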
